A study of Mus musculus with 8 samples.

Results

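The AP-1 and immediate early genes are 10 named genes, Fos, Fosb, Fosl1, Fosl2, Jun, Junb, Jund, Atf3, Egr1 and Ier2, read on gene arrays of hepatocytes, the main epithelial cells of the liver, cultured from mice. They were chosen by name. A gene was read from the array rows annotated to it alone, and the row of highest mean over the 8 arrays was kept where there were several. Of the 10 genes 9 had such a row, out of 22180 genes with a row of their own. Fosl1 shares its single row with another gene and was not analysed here. All 9 lay above the filter on dim genes, a mean log2 value of 3.32, and so belong to the 15380 genes tested.

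The compared samples are 4 hepatocyte cultures from p16-/- mice (KO) and 4 from p16+/+ littermates (WT), called biological replicates, with 1 array each. Both groups were handled alike: cells were freed by collagenase perfusion and attached overnight in Williams E medium that held 25 nM dexamethasone, a synthetic glucocorticoid, 100 nM insulin and 10% FBS. At 16 h both were moved to DMEM with 1 mM glucose and 0.1% BSA, and RNA was harvested at 24 h, after 8 h in this medium. The labels name neither the strain, sex and age of the mice nor the part of the gene deleted, and do not say whether each culture came from its own animal. The p-values below therefore rest on the spread between cultures, which may be partly technical.

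AP-1 is a transcription factor made of pairs of basic leucine zipper proteins. Jun proteins pair with each other or with Fos proteins, Fos proteins need a Jun partner, and ATF3 can pair with Jun proteins. Most of these genes are immediate early genes, transcribed within minutes of a growth factor, cytokine or stress signal through MAP kinases and factors already present in the cell, and their transcripts are short-lived. In the liver Jun is known for its need in regeneration, and partial hepatectomy and the isolation of hepatocytes are both known to induce many members of the group.

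The 8 arrays had medians of 3.76 to 3.88 on the log2 scale and correlated across the tested genes at 0.985 to 0.993 when both came from the same genotype and at 0.973 to 0.983 otherwise. KO replicate 4 stood apart on the second principal component, at -25.15 against -8.91 to 14.64 for the other arrays. The array row of Cdkn2a, the gene of p16, read 4.53 ± 0.31 in KO and 4.53 ± 0.28 in WT cultures (SD, n = 4 each; two-sided exact permutation p = 1). Whether its probes lie within the deleted part is not given in the sources used here, so this row does not check the genotype. Albumin, the defining hepatocyte product, read 13.56 to 13.59 in KO and 13.50 to 13.57 in WT cultures.

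Of the 9 genes measured, Jund and Fos were higher in KO hepatocytes, Junb and Egr1 were lower, and Fosb, Fosl2, Jun, Atf3 and Ier2 did not pass the test (limma, adjusted p under 0.05 over all genes tested). The 2 of 9 that were higher stand against 7.02% of all genes tested, the 2 of 9 that were lower against 6.76%, and the 4 in all against 13.8%. The values of all 4 KO arrays lay outside the range of the WT arrays for 3 of the 9, Fos, Junb and Jund, against 20.2% of all genes tested. The median change of the 9 genes, KO minus WT, was 0.07 on the log2 scale, against -0.02 over all genes tested. The calls of Junb and Jund held under all 19 other settings tried for each, and those of Fos and Egr1 under 10 of 19 each.

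**Figure D1:**
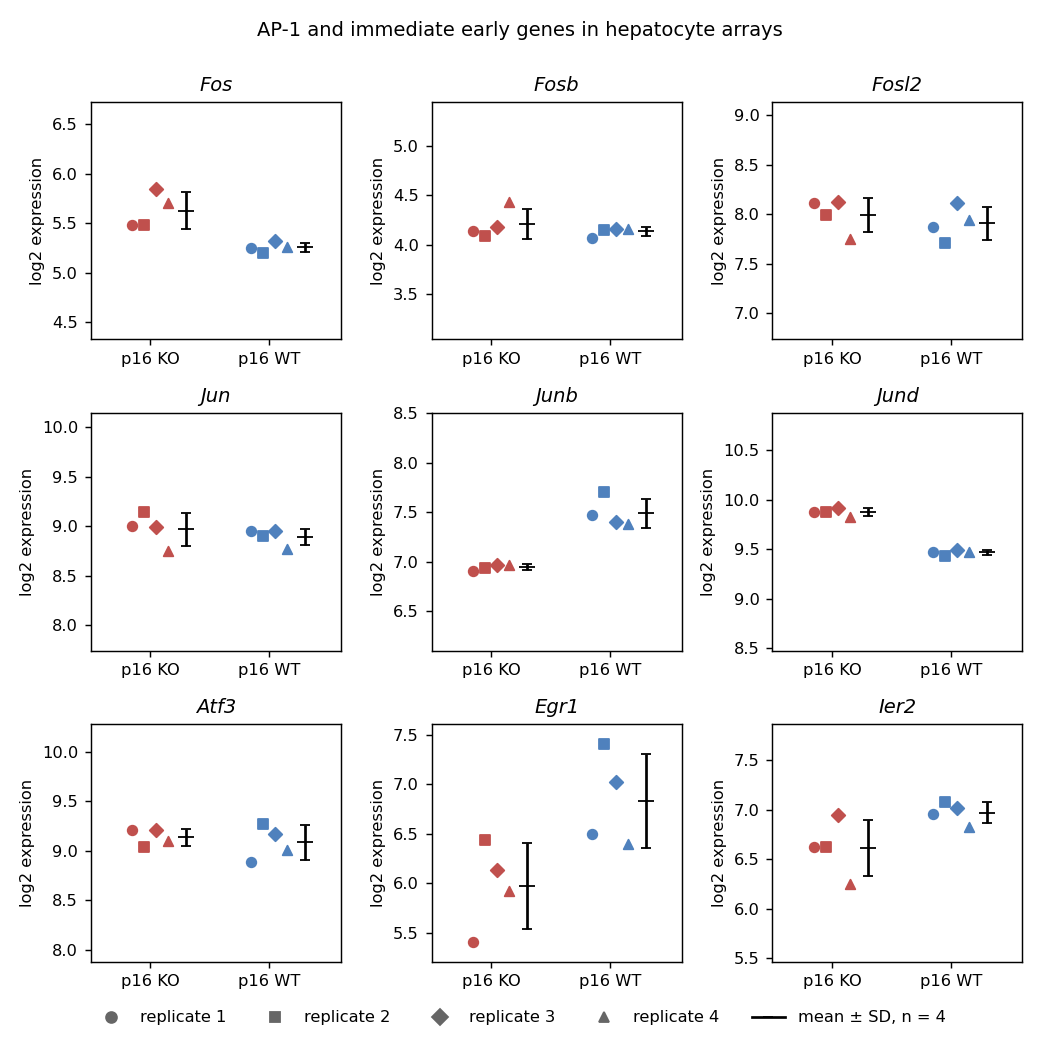
Log2 expression of the 9 genes in each of the 4 p16 KO and 4 p16 WT hepatocyte arrays, with the mean and SD of each group; every panel spans the same 2.4 log2 units. Junb, Jund and Fos separate the groups, and Egr1 has the widest spread within both, 1.03 in KO and 1.01 in WT arrays.

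**Figure D2:**
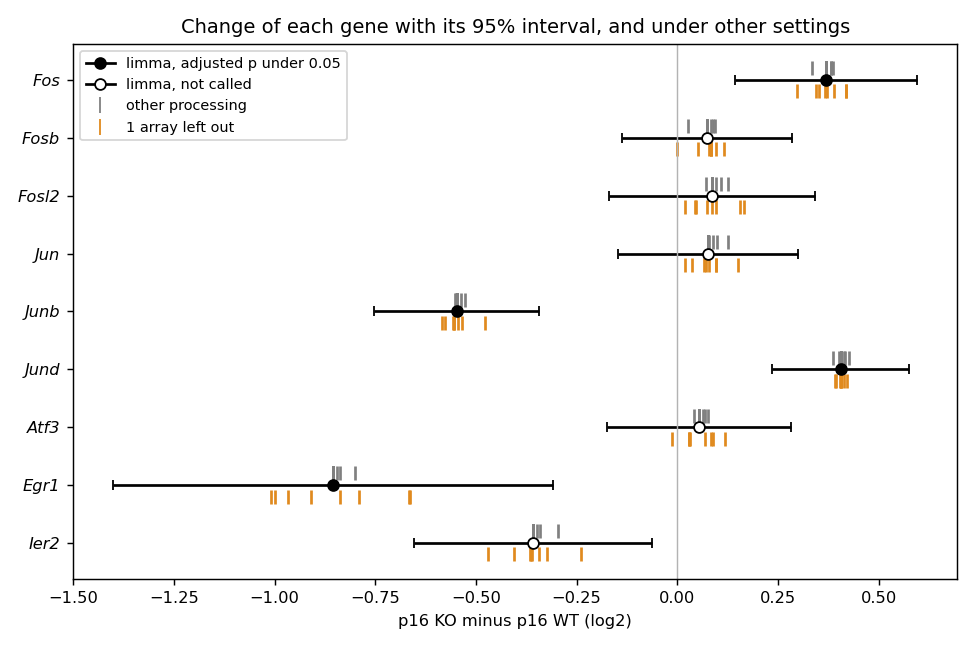
Change of each gene, p16 KO minus p16 WT on the log2 scale, with limma's 95% interval (circles and bars), and the same change under other processing (grey) and with 1 array left out (orange). Junb and Jund keep their place, while Egr1 runs from -1.01 to -0.66.

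Markers of the other cells of a liver preparation differed between the groups on the same arrays. The counts of markers in this and the next paragraph stand against 7.02% higher and 6.76% lower among all genes tested. All 10 sinusoidal endothelial markers fell, and their mean was 4.78 to 5.01 in KO and 6.09 to 6.28 in WT arrays. Among these cells' defining genes the cadherin Cdh5 read 6.21 ± 0.05 in KO and 8.24 ± 0.11 in WT cultures, and the hyaluronan receptor Lyve1 read 6.33 ± 0.24 in KO and 8.06 ± 0.10 in WT cultures (SD, n = 4 each). Of 9 tested Kupffer cell markers 7 fell and 1 rose, with a list mean of 4.59 to 4.68 in KO and 5.27 to 5.39 in WT arrays. Among the falls Cd5l read 3.13 in KO and 4.73 in WT cultures and Vsig4 3.00 and 3.82. The endothelial marker Clec4g read 3.28 and 3.93. These KO means lie below the filter value of 3.32, so these markers were tested only because of their WT arrays. The lysosomal protein gene Cd68 rose by 0.58 (adjusted p = 0.0131). The complement gene C1qa fell by 0.38 (adjusted p = 0.0287, and 0.0525 to 0.0802 without KO replicate 1 or 2 or WT replicate 2, 3 or 4).

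Stellate cell and fibroblast markers had a mean of 4.41 to 4.55 in KO and 5.03 to 5.08 in WT arrays, and of 10 tested 4 fell, led by the decorin gene Dcn, and 1, Reln, rose. Of 10 hepatocyte markers 7 rose and none fell by limma, against 9 higher and 0 lower at an unadjusted p under 0.05. Their list mean was 10.64 to 10.79 in KO and 9.65 to 9.85 in WT arrays, but their changes were uneven. The 2 brightest, Alb (0.03, adjusted p = 0.850) and Ttr (0.19, adjusted p = 0.165), were not called. With an intensity trend Ttr was called higher (0.0121, and 0.0098 in the robust form). Of the others, named after their values were seen, Apoa1 (0.22) was not called and Arg1 rose most (2.69). Of 4 tested bile duct markers, with Sox9 and Krt19 the brightest, none passed the limma test in either direction, while 1 was lower at an unadjusted p under 0.05. Among the 7 markers of other leukocytes with a row only Nkg7 and Cd3e were bright enough to be tested, and neither was called or had an unadjusted p under 0.05. In bulk RNA, fewer cells of a type and less RNA per cell cannot be told apart, and the part of these markers in the differences below was not tested.

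**Figure D3:**
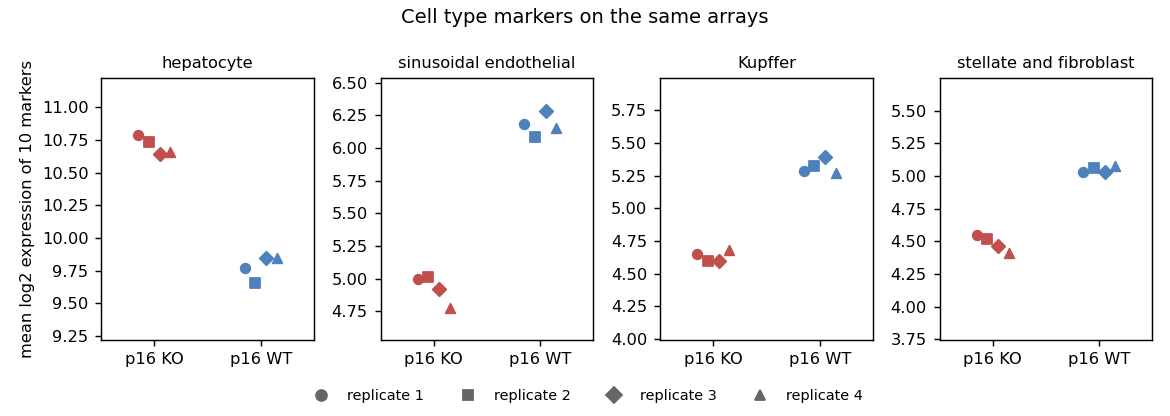
Mean log2 expression of 10 markers each of hepatocytes, sinusoidal endothelial cells, Kupffer cells and stellate cells or fibroblasts in the 4 p16 KO and 4 p16 WT arrays. KO arrays lie above all WT arrays for hepatocyte markers and below all WT arrays for the other 3 lists.

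The promoters of Jund, Junb, Fos and Jun are shown because the results turn on the first 3 and because Jun is the partner that did not pass the test. Each is the run of 250 bases before the RefSeq transcription start (GRCm38.p6), 5′ to 3′ in the direction of the gene, with matches to the motifs described after them in capitals.

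Jund, chr8:70697489-70697738, plus strand: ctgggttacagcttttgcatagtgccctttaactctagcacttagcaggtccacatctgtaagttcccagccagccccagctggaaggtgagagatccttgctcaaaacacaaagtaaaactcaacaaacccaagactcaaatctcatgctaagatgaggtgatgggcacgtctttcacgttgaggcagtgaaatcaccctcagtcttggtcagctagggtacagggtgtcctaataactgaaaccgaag

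Junb, chr8:84978749-84978998, minus strand: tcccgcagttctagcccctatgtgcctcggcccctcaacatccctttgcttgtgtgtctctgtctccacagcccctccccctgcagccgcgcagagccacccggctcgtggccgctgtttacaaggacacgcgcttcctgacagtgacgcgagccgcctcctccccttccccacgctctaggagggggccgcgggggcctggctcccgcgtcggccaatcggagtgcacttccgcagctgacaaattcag

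Fos, chr12:85473640-85473889, plus strand: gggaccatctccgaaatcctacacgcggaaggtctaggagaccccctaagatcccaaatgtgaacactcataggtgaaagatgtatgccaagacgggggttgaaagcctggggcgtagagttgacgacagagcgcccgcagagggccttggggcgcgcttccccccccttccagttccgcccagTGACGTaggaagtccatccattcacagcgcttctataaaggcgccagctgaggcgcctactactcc

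Jun, chr4:95052223-95052472, minus strand: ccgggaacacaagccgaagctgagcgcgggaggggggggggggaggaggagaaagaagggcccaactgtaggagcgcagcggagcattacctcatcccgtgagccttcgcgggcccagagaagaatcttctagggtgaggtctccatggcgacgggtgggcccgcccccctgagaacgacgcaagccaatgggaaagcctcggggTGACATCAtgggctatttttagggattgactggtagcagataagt

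A window of 300 bases, which runs on past the start, was searched for 7 of the genes, Fos, Fosb, Fosl2, Jun, Junb, Jund and Atf3. Egr1 was left out of the search by rule and Ier2 had no window, so what follows covers neither. The AP-1 site TGANTCA, the cyclic AMP response element (CRE) TGACGTCA and the serum response element (the CArG box) were each sought as exact letters on both strands. None of the 7 windows held any of the 3, which occur in 7.81%, 1.79% and 1.63% of the 32851 promoter windows in the table. After the sequences had been read, the opening letters of the CRE, TGACGT, and a form of it with A in place of the G, TGACATCA, were searched as well. Fos held TGACGT with its first base 66 bases before the start, and Atf3 held its reverse complement 8 bases before the start, against 7.51% of all windows. Jun held TGACATCA 45 bases before the start, against 3.62% of all windows. Junb and Jund held none of these letters within their windows. Sites spelled otherwise or lying outside the windows were not sought. Whether AP-1 proteins bind TGACATCA in Jun was not tested. The absence of TGANTCA therefore does not show that the Jun promoter, or any of the others, lacks an AP-1 site.

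In the Fos family, whose proteins bind DNA only with a Jun partner, Fos was higher in the KO. Fos, the prototype immediate early gene, read 5.48, 5.48, 5.85 and 5.71 on the log2 scale in KO cultures, against 5.25, 5.20, 5.31 and 5.26 in WT cultures. Every KO array lay above every WT array, as for 9.13% of all genes tested, and the KO arrays were the more spread. The mean was 5.63 ± 0.18 in KO and 5.26 ± 0.05 in WT cultures (SD, n = 4 each), 1.29-fold higher in the KO (log2 change 0.37, SE 0.10, limma adjusted p = 0.0343). Leaving out KO replicate 3 or 4 or WT replicate 1, 2, 3 or 4 ended that call, with adjusted p-values of 0.0847, 0.0636, 0.0837, 0.0857, 0.0600 and 0.0673, and so did testing without a filter on dim genes (0.0649) and centring the arrays on their medians (0.0547).

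Fosb, a close relative of Fos, read 4.14, 4.09, 4.18 and 4.43 in KO cultures, against 4.07, 4.15, 4.17 and 4.17 in WT cultures. KO replicate 4 was the highest array and the others were mixed. Its change was 0.07 with a 95% interval of -0.14 to 0.28 (adjusted p = 0.688). Fosl2, which encodes FRA-2, a Fos relative without the strong activation domain of FOS, read 8.11, 7.99, 8.12 and 7.75 in KO cultures, against 7.87, 7.71, 8.11 and 7.94 in WT cultures. The groups overlapped through most of their range, and the change of 0.09 had an interval of -0.17 to 0.34 (adjusted p = 0.703).

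In the Jun family, Jund and Junb moved in opposite directions and Jun did not pass the test. Jund, whose protein is the member known for steady rather than induced expression and for restraining proliferation in fibroblasts, read 9.88, 9.88, 9.92 and 9.83 in KO cultures, against 9.47, 9.44, 9.50 and 9.48 in WT cultures. The groups did not overlap, and the gap between them was several times the spread within either. The mean was 9.88 ± 0.04 in KO and 9.47 ± 0.03 in WT cultures (SD, n = 4 each), 1.32-fold higher in the KO (log2 change 0.41, SE 0.08, 95% interval 0.24 to 0.58, adjusted p = 0.00509). Over all 19 other settings the change was 0.39 to 0.43.

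A second array row is annotated to Jund alone, and it was not used for the gene because its mean was lower. It read 6.88, 6.95, 6.99 and 6.88 in KO cultures, against 6.41, 6.70, 6.42 and 6.69 in WT cultures. Here too each KO array lay above each WT array, by 0.37 between the means. In a limma fit over all 41345 rows this second row had an adjusted p of 0.123 and the row used for Jund had 0.0332. The annotation does not say which parts of the transcript the rows cover.

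Junb, which encodes an immediate early Jun protein that can oppose JUN on some promoters, read 6.91, 6.94, 6.97 and 6.96 in KO cultures, against 7.47, 7.70, 7.41 and 7.39 in WT cultures. All KO arrays lay below all WT arrays, as for 11.1% of all genes tested, and WT replicate 2 was the highest. The mean was 6.95 ± 0.03 in KO and 7.49 ± 0.14 in WT cultures (SD, n = 4 each), 1.46-fold lower in the KO (log2 change -0.55, SE 0.09, 95% interval -0.75 to -0.34, adjusted p = 0.00258). Over the other 19 settings the change ran from -0.58 to -0.48.

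Jun, the central AP-1 subunit, read 9.001, 9.14, 8.99 and 8.75 in KO cultures, against 8.95, 8.90, 8.95 and 8.77 in WT cultures. The 2 lowest arrays were KO replicate 4 and WT replicate 4, and the groups overlapped. Its change was 0.08 with a 95% interval of -0.15 to 0.30 (adjusted p = 0.694), so a difference of the size seen in Junb lies outside the interval.

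Atf3, a stress-induced gene of the ATF/CREB family, read 9.21, 9.03, 9.20 and 9.09 in KO cultures, against 8.88, 9.27, 9.17 and 9.004 in WT cultures. WT arrays held both the highest and the lowest value, and the change of 0.05 had a 95% interval of -0.17 to 0.28 (adjusted p = 0.797).

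Egr1 encodes a zinc finger factor that is induced with the AP-1 genes but binds DNA as a single protein. It read 5.41, 6.43, 6.13 and 5.93 in KO cultures, against 6.49, 7.41, 7.02 and 6.40 in WT cultures. The groups touched, since KO replicate 2 lay just above WT replicate 4. The mean was 5.98 ± 0.43 in KO and 6.83 ± 0.47 in WT cultures (SD, n = 4 each), which is 1.81-fold lower in the KO (log2 change -0.86, SE 0.25, 95% interval -1.40 to -0.31, adjusted p = 0.0421). Among the 9 genes this was the largest change and the one of widest interval. Without KO replicate 1, 3 or 4 or WT replicate 2 or 3 the call ended, with adjusted p-values of 0.106, 0.0608, 0.0868, 0.107 and 0.104. It also ended without the filter on dim genes (0.0705), after cyclic loess (0.0502) and with array weights (0.0544). Over all 19 other settings the limma adjusted p of Egr1 ran from 0.00285 to 0.107. Each KO array lay below the WT array of its number, though the labels do not say what the numbers mark.

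Ier2, an immediate early gene whose product is found in the nucleus, read 6.62, 6.63, 6.94 and 6.25 in KO cultures, against 6.96, 7.07, 7.02 and 6.83 in WT cultures. Only KO replicate 3 reached the range of the WT arrays, while KO replicate 4 was the lowest of all. The change of -0.36 (SE 0.13, 95% interval -0.65 to -0.06) had an adjusted p of 0.108. Without KO replicate 3 it was -0.47 and passed the test (adjusted p = 0.0317).

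Single arrays were not high or low for all genes at once. WT replicate 2 was the highest WT array for Junb, Atf3, Egr1 and Ier2, and the lowest for Fos, Fosl2 and Jund. KO replicate 3 was the highest KO array for Fos, Fosl2, Junb, Jund and Ier2. KO replicate 4, the array that stood apart on the second component, was the lowest KO array for Fosl2, Jun, Jund and Ier2 and the highest for Fosb.

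The kinases that carry the signal to these genes were read next. Of 24 listed genes of the MAP kinase cascade 18 were tested. By limma 4 rose and none fell, where 7.02% and 6.76% of all genes tested did so. At an unadjusted p under 0.05 there were 5 higher and 2 lower. The median change was 0.10, against -0.02 over all genes tested. Map2k4, whose kinase activates JNK, read 8.60 ± 0.10 in KO and 7.97 ± 0.05 in WT cultures (SD, n = 4 each; log2 change 0.63, SE 0.09, adjusted p = 6.32e-04). Mapk8, the gene of JNK1, the kinase that phosphorylates JUN, rose by 0.60 (SE 0.10, adjusted p = 0.00201), and the EGF receptor gene Egfr by 0.49 (SE 0.09, adjusted p = 0.00520). Also higher was the upstream kinase gene Map3k1, picked out here once its value was known (log2 change 0.67, adjusted p = 0.0182, but 0.0556 without KO replicate 1 and 0.0537 without WT replicate 1). The count of 0 falls did not hold under 7 of the other settings, each of which called 1 gene lower, Rps6ka3 or Map2k5, both named after their values were seen. Rps6ka3, a kinase gene downstream of ERK with a change of -0.26 (adjusted p = 0.0726), was called with the 60th percentile filter, both intensity trends and array weights (adjusted p 0.0349 to 0.0452). Map2k5, with a change of -0.35 (adjusted p = 0.100), was called after quantile normalization, with the replicate block and without WT replicate 4 (adjusted p 0.0395 to 0.0430). The hepatocyte marker mean was higher by 0.93 on the KO arrays.

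Of 9 tested genes for the factors that switch on immediate early promoters 2 rose and 1 fell, with a median change of 0.16. All genes tested had 7.02% higher, 6.76% lower and a median change of -0.02. Srf, the serum response factor that binds the CArG box, read 8.84 ± 0.15 in KO and 8.24 ± 0.11 in WT cultures (SD, n = 4 each; log2 change 0.60, SE 0.10, adjusted p = 0.00257). Its coactivator gene Mrtfb rose by 0.89 (SE 0.13, adjusted p = 0.00102). Elk3, a ternary complex factor that can repress SRF targets and is known from endothelial cells, read 4.32 ± 0.20 in KO and 5.40 ± 0.22 in WT cultures, a fall of 1.07 (SE 0.13, adjusted p = 3.31e-04), on arrays whose endothelial marker mean was lower by 1.25 in the KO.

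Inhibitors of the cascade moved both ways. Of 15 phosphatase and sprouty genes tested 2 rose and 3 fell, against 7.02% and 6.76% of all genes tested. The median change was -0.21, against -0.02 over all genes tested. The JNK and p38 phosphatase genes Dusp8 and Dusp10 rose, by 0.77 (SE 0.11, adjusted p = 7.54e-04) and 0.48 (SE 0.09, adjusted p = 0.00497). Dusp5, whose product removes phosphate from ERK, fell by 0.38 (SE 0.08, adjusted p = 0.0122). The other falls, named after their values were seen, were those of Spry1 (-0.65, adjusted p = 0.0136) and Dusp7 (-0.36, adjusted p = 0.0452), and the Dusp7 call ended in 7 of the 8 fits with 1 array left out, all but that without KO replicate 3, with adjusted p-values of 0.0621 to 0.110. It ended as well with the replicate block (0.0821), without the filter on dim genes (0.0823) and with median centring (0.0945). Dusp16, also named after its value was seen, had a change of -0.27 (adjusted p = 0.0986) with every KO array below every WT array. It was called lower with both intensity trends (adjusted p = 0.0233 each).

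Other immediate early genes also split. Of 33 tested 5 rose and 7 fell, against 7.02% and 6.76% of all genes tested, and 21 did not pass. The median change was -0.04, against -0.02 over all genes tested. Among those 21, Phlda1 (-0.46, adjusted p = 0.0501) was called lower under 6 other settings, Klf10 (-0.44, adjusted p = 0.0626) lower under 5 and Csrnp1 (0.34, adjusted p = 0.0763) higher under 7; these 3 were named after their values were seen. Plk3, a stress-responsive polo-like kinase gene, read 8.56 ± 0.13 in KO and 6.91 ± 0.12 in WT cultures (SD, n = 4 each), 3.15-fold higher (log2 change 1.65, SE 0.10, adjusted p = 3.61e-06). The clock and glucocorticoid-induced gene Per1 was 2.74-fold higher (log2 change 1.45, SE 0.13, adjusted p = 3.32e-05). Ier3, an NF-kB-induced survival gene, was 1.97-fold lower in the KO (log2 change -0.98, SE 0.09, adjusted p = 3.83e-05). Egr2, Egr3 and Egr4, the relatives of Egr1, named after their values were seen, had changes of 0.08 (adjusted p = 0.818), -0.02 (0.934) and -0.32 (0.216).

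Of 10 tested genes for other basic leucine zipper proteins that can pair with or compete with AP-1, 1 fell and none rose by limma. At an unadjusted p under 0.05 there were 2 lower and none higher. The 1 of 10 called is near the 13.8% called among all genes tested, so the count is no result about this list. The fall was that of Maf, which read 3.79 ± 0.29 in KO and 4.34 ± 0.11 in WT cultures (SD, n = 4 each; log2 change -0.55, SE 0.14, adjusted p = 0.0216). It lost the call without KO replicate 2 (0.0687) or 3 (0.0535) or WT replicate 1 (0.0572) or 2 (0.0643). Maf is also dim, with a mean of 4.06 over all arrays. The 60th percentile filter, at 4.32, left it out, and no gene of this list was then called lower. Batf, a Jun partner of lymphoid and myeloid cells, had a change of -0.26 (adjusted p = 0.139), and Mafa one of 0.13 (adjusted p = 0.445).

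Among genes known as AP-1 targets in other settings 18 of 24 were tested. Of these 1 rose and 6 fell, against 7.02% and 6.76% of all genes tested. The median change was -0.20, against -0.02 over all genes tested. Vegfa, the gene of a vascular growth factor, also named after its value was seen, had a change of 0.35 (adjusted p = 0.0577) with every KO array above every WT array, and 7 other settings called it higher (adjusted p 0.00937 to 0.0492), which makes 2 rises. In the other direction Il11, named in the same way, had a change of -0.29 (adjusted p = 0.0750). It was called lower under 3 other settings (adjusted p 0.0349 to 0.0459). Its means were 3.21 in KO and 3.50 in WT cultures, near the filter value of 3.32. Ccl2, a monocyte chemokine gene, read 6.04 ± 0.15 in KO and 7.74 ± 0.24 in WT cultures (SD, n = 4 each; log2 change -1.70, SE 0.13, adjusted p = 1.04e-05). Plaur, the urokinase receptor gene, fell by 0.58 (SE 0.11, adjusted p = 0.00418). The other falls, named after their values were seen, were the neutrophil chemokine gene Cxcl2 (-0.81), the hyaluronan receptor gene Cd44 (-0.68), the cyclooxygenase gene Ptgs2 (-0.61) and the urokinase gene Plau (-0.50). The Ptgs2 call ended in 4 of the 8 fits with 1 array left out, those without KO replicate 2 or 4 or WT replicate 1 or 4 (adjusted p 0.0516 to 0.0713), and the Plau call in 7 of 8, all but that without KO replicate 4 (0.0543 to 0.119), and without the filter on dim genes (0.0767). Cxcl2 and Ptgs2 were too dim for the 60th percentile filter, under which 4 genes of this list were called lower. Hmox1, the gene of heme oxygenase, which is also driven by NRF2, was 2.03-fold higher in the KO (log2 change 1.02, SE 0.15, adjusted p = 9.78e-04). On the same arrays the Kupffer cell marker mean was lower by 0.69 and the endothelial one by 1.25 in the KO. The target list was written from general knowledge of AP-1 and not from binding data in these cells.

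**Figure D4:**
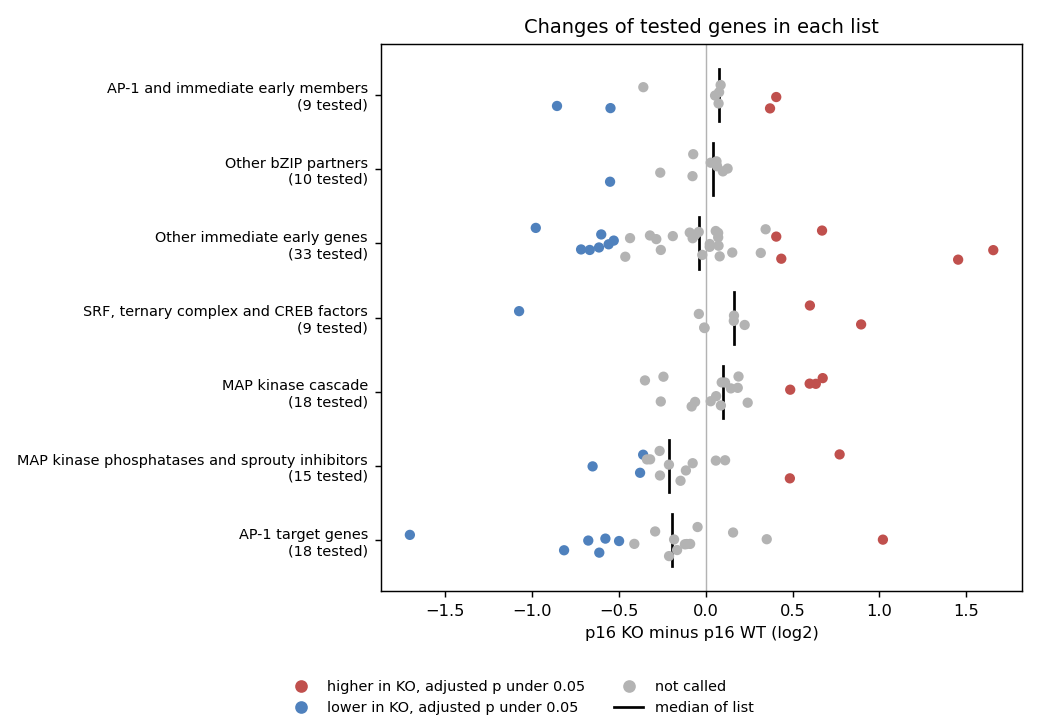
Change of every tested gene, p16 KO minus p16 WT on the log2 scale, in the 9 measured AP-1 and immediate early genes and in 6 lists of related genes, each point a gene and each bar a list's median. Calls lie on both sides of 0 in all lists except those of other leucine zipper partners, where 1 gene fell, and of the kinase cascade, where 4 genes rose and none fell as tested here, though 1 fell under 7 other settings.

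Genes whose profile over the 8 arrays was most like that of Fos, Jun, Atf3 or Egr1 were sought by the root mean square distance between log2 values centred on each gene's mean, among 13638 tested genes. Nearest to Fos were Tpsg1, at 0.06 log2 units, and Dgat1, which encodes a triglyceride-making acyltransferase, at 0.07, where the median gene lay at 0.28. Dgat1 was higher in the KO by 0.34 (adjusted p = 0.0369), a call that ended in all 8 fits with 1 array left out, with adjusted p-values of 0.0502 to 0.0994. Because Dgat1 was picked for its likeness to Fos over the same arrays, a change like that of Fos is not a separate result. The genes nearest to Jun were Brox and Cers6, each at 0.04, against a median of 0.21. Those nearest to Atf3 were Ocel1 and Pfkfb4, at 0.05 and 0.06, against a median of 0.22. For Egr1 they were Hhipl1 and Fthl17e, at 0.24 and 0.26, against a median of 0.59. The distance grows with a gene's own spread, and the centred values of Egr1 spanned 2.00 log2 units, against 0.65 for Fos, 0.40 for Jun and 0.39 for Atf3, so distances are not compared between these genes.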

How the data were processed

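The authors deposited 1 table of log2 values with 41345 rows for the 8 samples, made by RMA through the oligo package per the submitters' processing notes; their versions were not stated. This method subtracts background, quantile-normalizes the arrays and summarises probes, so shifts shared by all genes are removed. Arrays have no read depth, and the 4 arrays per group limit the precision.

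Rows were named from the platform annotation (23521 with 1 symbol, 1814 with several, 16010 with none; only the first were used). The 15380 genes with a mean above the 40th percentile of row means entered 1 fit by lmFit and eBayes (limma 3.58.1, R 4.3.3; no trend, no covariate), two-sided, with Benjamini-Hochberg adjustment over all of them and a threshold of 0.05; errors of changes are moderated standard errors. Calculations on promoters used Python 3.11.15 and the RefSeq windows (GRCm38.p6) of 7 of the genes used here. Egr1 was left out by rule, and Ier2 had no window. The fit was tested on simulated data.

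The genes and lists were chosen with earlier results of these data known. Named beside the 9 genes are the 3 of smallest p in each related list, the 2 brightest of each marker list, the 2 nearest profiles for 4 genes, and Cdkn2a. Alternatives covered the filter, several rows per gene, further normalization, variance models, array weights, a replicate block, a stricter threshold and leaving out each array.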

Additional observations from a re-analysis of the deposited data

Results flagged for a closer look

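No culture stood far from the other 3 of its group in any of the 9 AP-1 and immediate early genes. Among the 48 named genes, in 96 groups of 4 arrays, 5 single arrays stood far from the rest, and chance gives such a gap in about 1 of 20 groups. Of the factors and inhibitors around AP-1, Mrtfb read 7.35 in WT replicate 1 against 7.57 to 7.61 in the other WT arrays, and Dusp8 read 6.77 in KO replicate 4 against 7.11 to 7.16 in the other KO arrays. The target gene Ccl2 read 7.38 in WT replicate 4 against 7.83 to 7.88 in the other WT arrays. Among the markers, Ttr read 12.95 in KO replicate 1 against 12.98 in the other KO arrays, and Lyve1 read 7.90 in WT replicate 2 against 8.09 to 8.12 in the other WT arrays.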

How the results depend on the processing

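Counts of genes called ran from 1448 to 2165 (765 to 1238 higher, 654 to 992 lower) with 1 array left out, the low count of lower genes, 654 against 1039, being that without WT replicate 1. At an adjusted p under 0.01 they were 1071, with 592 higher and 479 lower, and among the related lists 21 in place of 32. Of the 9 AP-1 and immediate early genes 2 to 4 were called with 1 array left out (1 or 2 higher and 1 or 2 lower). They numbered 2, with 1 higher and 1 lower, without a filter on dim genes and at an adjusted p under 0.01. With median centring 1 was higher, and with cyclic loess or array weights 1 was lower. The calls that ended were those of Fos and Egr1; the cause was not tested. Changes that turned sign with 1 array left out, none of them called, ran from -0.0123 to 0.117 for Atf3, -0.0219 to 0.118 for Ocel1, -0.0206 to 0.113 for Brox, -0.128 to 0.0225 for Cd3e, -0.0503 to 0.181 for Nkg7 and -0.122 to 0.0932 for Cdkn2a. With array weights Nkg7 was at -1.17e-04. Same-numbered KO and WT arrays deviated together at correlations of 0.06, 0.02, 0.26 and 0.21, and 2 of 4 KO arrays correlated best with the WT array of their number. On the second principal component replicate 3 was the highest and replicate 4 the lowest array of both groups. These values do not settle whether the numbers pair the samples. The labels do not say what the numbers mark, so the main fit had no replicate block. With the replicate block 2215 genes (1082 higher, 1133 lower), 4 of the 9 genes and 34 list genes were called. Among list genes the block ended the call of Dusp7 (adjusted p = 0.0821) and added those of Map2k5 (0.0428), Csrnp1 (0.0423) and Phlda1 (0.0200).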

Other observations

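The difference between the Jund and Junb readings within an array, which does not depend on a shift shared by all genes of that array, was looked at after the values of both genes had been seen. It was 2.97, 2.94, 2.95 and 2.86 in KO cultures, against 2.00, 1.73, 2.09 and 2.09 in WT cultures. The mean was 2.93 ± 0.05 in KO and 1.98 ± 0.17 in WT cultures (SD, n = 4 each), 0.95 higher in the KO. This value joins the rise of Jund and the fall of Junb given above and adds no separate result. Since probes differ between genes, the size within 1 array says nothing of which transcript is more abundant. Among other immediate early genes, Myc (-0.72), Klf4 (-0.56), Nr4a2 (-0.67), Ier5 (-0.60), Nfkbia (-0.53) and Plk2 (-0.61) were also lower in the KO, and Btg2 (0.67), Errfi1 (0.44) and Gadd45b (0.41) were higher; these were named after their values were seen. The Plk2 call ended without KO replicate 2 (adjusted p = 0.0634) or WT replicate 1 (0.0613) or 3 (0.0589), and that of Gadd45b without KO replicate 1 (0.0545) or 2 (0.0555).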
